A study of Homo sapiens with 4 samples.

Results

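Genes that mark or maintain stem cells were read on 4 microarrays of A549, a human lung adenocarcinoma cell line. The 10 genes were SOX2, POU5F1, NANOG, KLF4, MYC, BMI1, PROM1, CD44, KIT and KITLG, and every probe set that the platform's gene table assigns to one of them was kept, which gave 30 probe sets among the 54613 of the array. The table names 19775 genes alone on some probe set, among them all of the 10 except POU5F1 and BMI1, whose probe sets name other genes as well. A probe set is a group of short oligonucleotides that together measure 1 transcript region. The study asked which genes respond to nicotine in lung cancer cells and which of those responses need β-arrestin-1, the product of ARRB1. A549 cells carrying control siRNA or ARRB1 siRNA were serum starved for 36 h, and each kind was then read either without further treatment or after nicotine at 1 µM for 24 h. The sample labels name the siRNA target only as β-arrestin, and the identity as ARRB1 comes from the study's methods. Each condition was read on 1 array, so differences between 2 conditions could not be tested against replicates, and so few arrays limit the precision of all values. Whether ARRB1 siRNA was 1 sequence or a pool, and whether the arrays came from 1 transfection, is not given in the sources used here.

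SOX2, OCT4 (the product of POU5F1) and NANOG form the core transcription factor circuit of embryonic stem cells, and KLF4 and MYC are the factors that, together with SOX2 and OCT4, return differentiated cells to pluripotency. BMI1 is a subunit of Polycomb repressive complex 1 that silences the CDKN2A locus and sustains self-renewal of adult stem cells. CD133 (the product of PROM1) and CD44, the receptor for hyaluronan, are surface proteins used to sort stem-like tumour cells, and stem cell factor (SCF, the product of KITLG) is the ligand of the receptor tyrosine kinase KIT.

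The study places the transcription factor E2F1 upstream of SCF, so the bases before the start of KITLG are printed here. Those before SOX2, the pluripotency gene whose 2 brightest probe sets were lower with ARRB1 siRNA, are printed beside them. Both are the 250 bases before the RefSeq transcript start in GRCh38.p14, on the strand of the gene, chr12:88580472-88580721 on the minus strand for KITLG and chr3:181711675-181711924 on the plus strand for SOX2. Capitals mark GGCGGGAA, a motif of the kind bound by E2F factors, which was searched on both strands (the other strand reads TTCCCGCC).
KITLG: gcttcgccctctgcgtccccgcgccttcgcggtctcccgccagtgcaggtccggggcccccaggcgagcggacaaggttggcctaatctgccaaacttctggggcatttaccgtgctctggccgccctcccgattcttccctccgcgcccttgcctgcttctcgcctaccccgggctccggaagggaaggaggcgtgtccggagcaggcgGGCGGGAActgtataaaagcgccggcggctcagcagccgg
SOX2: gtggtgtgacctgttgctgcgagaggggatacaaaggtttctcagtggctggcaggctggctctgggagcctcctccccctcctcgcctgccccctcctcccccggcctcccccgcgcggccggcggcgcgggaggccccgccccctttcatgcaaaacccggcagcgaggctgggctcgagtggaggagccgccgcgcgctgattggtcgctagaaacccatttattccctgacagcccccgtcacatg
The KITLG sequence held 1 match, which starts 40 bases before the transcript start, and the SOX2 sequence held none. The E2F binding sequences that the study lists were not searched for. Some of them, among them the stretch that the study mutated, lie unmarked elsewhere in the KITLG window. Windows of 8 of the 10 genes were used, without MYC and POU5F1. Of their 12 windows 1 had a match, against 955 of all 35116 windows of this length (2.72%). A match describes the letters only, and the absence of these letters from 1 window says nothing about the factor.

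The arrays had been brought to a common level, with a mean signal of 499.9 on each after the lowest and highest 2% of probe sets were left out. Signals are linear and in arbitrary units. All values below are given first for control siRNA cells, serum starved and then nicotine treated, and next for ARRB1 siRNA cells, likewise serum starved and then nicotine treated. In that order the array medians were 68.6, 73.3, 72.4 and 69. The targeted transcript was lower on 6 of the 7 probe sets for ARRB1 in each pair of arrays, where the median probe set kept 54.2% (starved) and 65.7% (nicotine) of its control signal. The label A549 was checked on 12 epithelial and A549 genes (keratins, EPCAM, CDH1, aldo-keto reductases, NQO1 and ALDH3A1), all of which lay at or above the array median on every array. Of 12 measured markers of leukocytes, mast cells, endothelium and fibroblasts, 3 (PECAM1, COL1A1 and DCN) had a mean signal at or above the median of all probe sets, and PTPRC, the common leukocyte antigen, had signals of 4.2, 12.1, 35.9 and 25.9.

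Whether a stem cell gene can be judged on these arrays depended on the gene. Detection calls were not used here, so the array median stood in for a detection limit. At or above the median on all 4 arrays were 17 probe sets of 6 genes: SOX2, KLF4, MYC, BMI1, CD44 and KITLG. Another 3 probe sets, of SOX2, POU5F1 and CD44, reached it on some arrays. The remaining 10, of NANOG, PROM1, KIT, CD44 and KITLG, lay below it on every array, so NANOG, PROM1 and KIT had no probe set with which a difference could be judged. The plot of signals by probe set shows the separation.

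**Figure D1:**
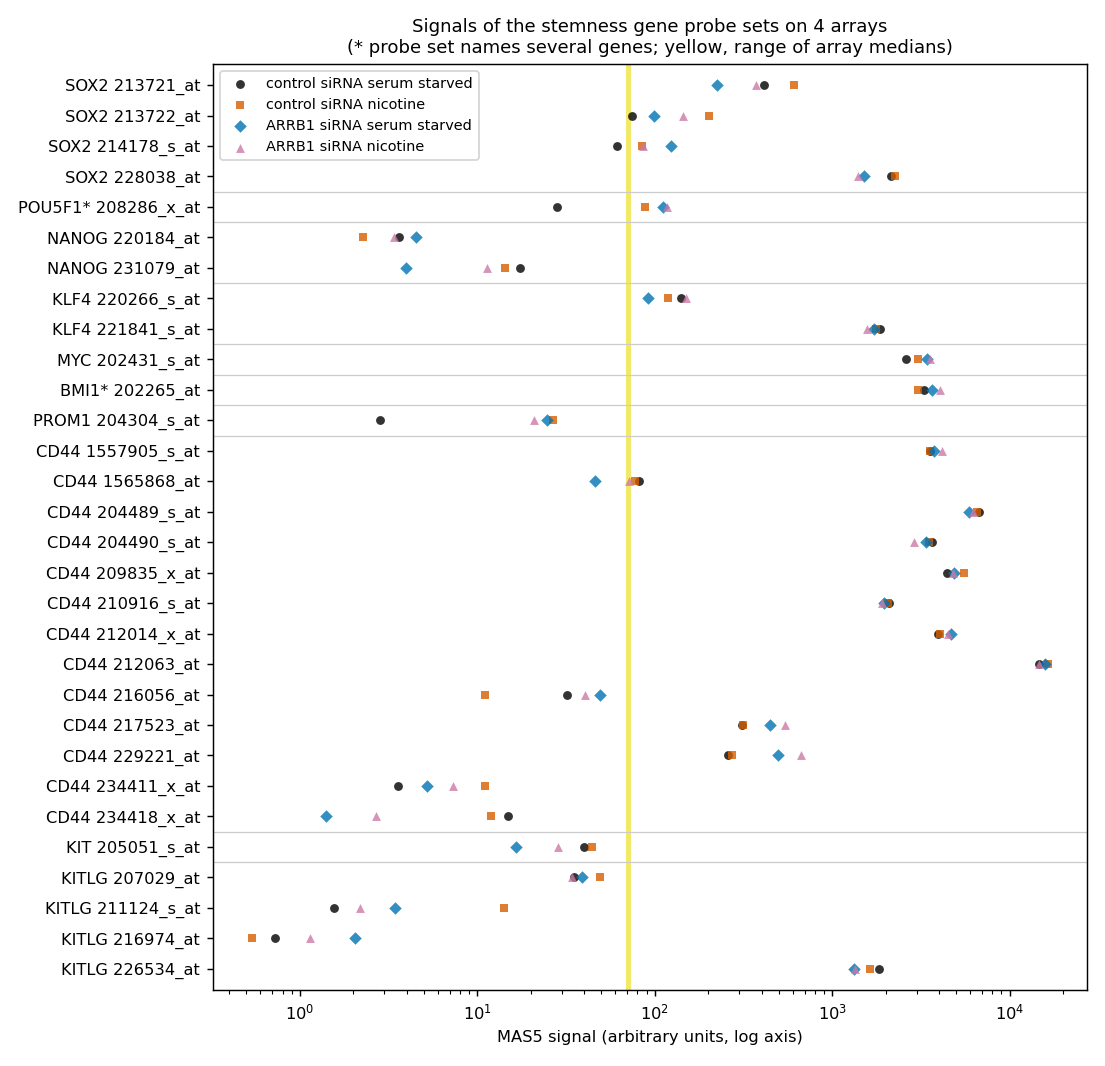
MAS5 signals (arbitrary units, log axis) of the 30 probe sets of the stem cell genes, with 1 symbol for each of the 4 arrays and the range of array medians (68.6 to 73.3) as a yellow band. The symbols of MYC, BMI1 and most CD44 probe sets lie far to the right of the band and close together, whereas those of NANOG, PROM1 and KIT lie to its left and are widely spread.

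SOX2 had lower signals with ARRB1 siRNA on its 2 brightest probe sets and not on the other two. On 228038_at the signals were 2139 and 2268 with control siRNA and 1507 and 1399.9 with ARRB1 siRNA. Both control arrays were above both ARRB1 siRNA arrays, and the log2 differences with ARRB1 siRNA were -0.51 in serum starved and -0.70 in nicotine treated cells. Probe sets of similar brightness had log2 differences with SDs of 0.25 and 0.27 in these pairs, where the SD is taken over the 500 probe sets nearest in mean signal. The brightness of 213721_at was lower, at 415, 607, 225 and 374, and its log2 differences with ARRB1 siRNA were -0.89 (SD at that signal 0.38) and -0.70 (SD 0.41). Within each treatment its ARRB1 siRNA array was the lower one, by 1.85-fold in serum starved and by 1.62-fold in nicotine treated cells.

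An additive fit was made with limma over all 4 arrays, with siRNA and nicotine as terms of 2 arrays against 2 and 1 residual degree of freedom, so that any interaction counts as error. In it the ARRB1 siRNA difference of SOX2 was -0.60 (SE 0.11, adjusted p = 0.076) on 228038_at and -0.79 (SE 0.16, adjusted p = 0.095) on 213721_at, neither past the threshold of 0.05. Fitted on the brighter 27307 probe sets alone, the adjusted p-values were 0.012 and 0.019. Over all settings tried they ranged from 0.00036 to 0.733 for 228038_at and from 0.00306 to 0.733 for 213721_at. In RNA from whole cultures, fewer cells with a transcript and less of it per cell cannot be told apart.

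The dimmer SOX2 probe sets went differently. Signals of 213722_at were 74.3, 203, 98.9 and 144, with log2 differences with ARRB1 siRNA of 0.41 in starved and -0.50 in treated cells, against SDs of 0.49 and 0.50. Signals of 214178_s_at were 61.4, 85, 123 and 86.5, and its difference in serum starved cells, 1.01 (0.93 with each array centred on its median or after quantile normalization), came from a control signal below the median of its array. The 4 probe sets of SOX2 thus did not share 1 direction with ARRB1 siRNA.

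With nicotine, SOX2 was higher on 213721_at by 0.55 in control siRNA cells (SD 0.27) and by 0.73 in ARRB1 siRNA cells (SD 0.31), and on 213722_at by 1.45 (SD 0.43) and 0.54 (SD 0.47), all on the log2 scale. The brightest probe set, 228038_at, differed by 0.08 and -0.11, less than the SDs of 0.16 and 0.23. On 214178_s_at the nicotine differences had opposite signs, 0.47 in control and -0.51 in ARRB1 siRNA cells, both within the SD at its signal. In the additive fit the nicotine difference of 213721_at was 0.64 (adjusted p = 0.450, limma), which did not pass.

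POU5F1 was represented by 1 probe set, 208286_x_at, which also names POU5F1B, POU5F1P3 and POU5F1P4, so its signal cannot be assigned to OCT4. Its signals were 28.0, 87.9, 112 and 118. The serum starved control array stood apart below its median, and the other 3 arrays lay above theirs. Against that array the log2 difference was 1.65 with nicotine (SD 0.61) and 2.00 with ARRB1 siRNA (SD 0.61). With signals floored at the median of each array these became 0.36 and 0.71. The comparisons without that array gave 0.07 for nicotine in ARRB1 siRNA cells and 0.42 for ARRB1 siRNA in nicotine treated cells (SD 0.66).

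NANOG, the homeodomain factor of the pluripotency circuit, had signals of 3.6, 2.3, 4.5 and 3.4 on 220184_at and 17.4, 14.3, 4.0 and 11.4 on 231079_at. Both probe sets lay far below the median of each array. With ARRB1 siRNA in serum starved cells 231079_at had a log2 difference of -2.13, from 2 signals below the median, where the SD among probe sets as dim was 1.71.

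KLF4, a zinc finger factor, had signals of 1868, 1771, 1721 and 1571 on its brighter probe set, 221841_s_at. Its 4 log2 differences were small, at -0.08 and -0.13 with nicotine and -0.12 and -0.17 with ARRB1 siRNA, in the order of control then ARRB1 siRNA cells and of starved then nicotine treated cells. The dimmer 220266_s_at, with 140, 118, 91.8 and 149, had differences of opposite sign in the 2 siRNA pairs, -0.61 and 0.34.

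MYC, which drives ribosome production and growth, was bright, with signals of 2596, 3028, 3423 and 3576 on 202431_s_at. Both ARRB1 siRNA arrays were above both control arrays. The log2 difference with ARRB1 siRNA was 0.40 in serum starved (SD 0.26) and 0.24 in nicotine treated cells (SD 0.31), which the additive limma fit put at 0.32 (SE 0.10, adjusted p = 0.237). With nicotine MYC differed by 0.22 in control (SD 0.14) and 0.06 in ARRB1 siRNA cells (SD 0.23).

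BMI1 had signals of 3277, 3062, 3664 and 4054 on 202265_at, a probe set that also names the COMMD3-BMI1 readthrough transcript. Its ARRB1 siRNA signals were above both control signals, by log2 differences of 0.16 without nicotine (within the SD of 0.25) and 0.41 with it (SD 0.29). The additive limma fit gave 0.28 (adjusted p = 0.315). BMI1 differed with nicotine by -0.10 and 0.15.

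CD44 rose with ARRB1 siRNA on 1 of its 13 probe sets in the additive fit. On its 7 brightest probe sets the log2 differences stayed between -0.29 and 0.31 in every comparison. The probe set that rose, 229221_at, had signals of 260, 271, 497 and 664. Both ARRB1 siRNA arrays were above both control arrays, by log2 differences of 0.93 in serum starved (SD 0.36) and 1.29 in nicotine treated cells (SD 0.38), or 1.91-fold and 2.45-fold. The additive limma fit gave 1.11 (SE 0.17, adjusted p = 0.041). That p ranged from 1.6e-06 to 0.721 over the settings tried, and the highest came without the trend and robust settings of the fit.

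Another CD44 probe set, 217523_at, lay the same way, with 311, 317, 446 and 544, log2 differences of 0.52 (SD 0.36) and 0.78 (SD 0.38), and 0.65 in the additive limma fit (SE 0.16, adjusted p = 0.155, or 0.041 among the brighter probe sets alone, and 0.025 to 0.733 over all settings). With nicotine, 229221_at and 217523_at had log2 differences of 0.06 and 0.03 in control siRNA cells, within the SD of 0.25, and of 0.42 and 0.29 in ARRB1 siRNA cells, where the SD was 0.30.

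The 7 brightest CD44 probe sets had signals of 2081 to 14668 on the serum starved control array, 2067 to 16394 and 1972 to 15876 on the next arrays in order, and 1918 to 14644 on the nicotine treated ARRB1 siRNA array. Their 28 log2 differences lay between -0.29 and 0.31. SDs are small at such brightness, and some of the differences exceeded them. The largest, on 209835_x_at with nicotine in control siRNA cells, was 0.31 (SD 0.15), and 212063_at had 0.16 there (SD 0.09). Their medians were 0.02 and -0.04 with nicotine in control and ARRB1 siRNA cells, and 0.08 and -0.11 with ARRB1 siRNA in serum starved and nicotine treated cells. The probe sets of CD44 therefore disagreed, as the plot of CD44 signals shows, and the exon or isoform that each of them measures is not given in the sources used here.

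**Figure D2:**
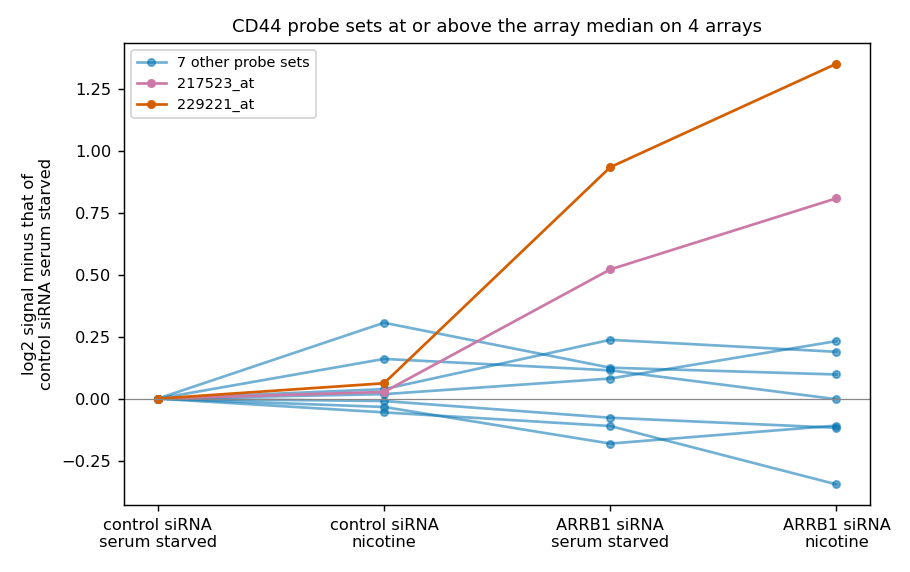
Log2 signal of the 9 CD44 probe sets at or above the array median on all 4 arrays, each minus its own value on the serum starved control array, with 1 line per probe set over the 4 conditions. The lines of 229221_at and 217523_at stand apart from the other 7 on both ARRB1 siRNA arrays and lie among them on the nicotine treated control array.

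Of the remaining CD44 probe sets, 1565868_at lay near the median, with 81.3, 77.6, 45.9 and 71.7. Its log2 differences with ARRB1 siRNA were -0.83 in serum starved (SD 0.65) and -0.11 in nicotine treated cells (SD 0.69). The first came from an ARRB1 siRNA signal below the median of its array. The other 3 had signals of 1.41 to 49.5 and cannot be judged.

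PROM1, which encodes CD133, had signals of 2.8, 26.6, 24.9 and 21.0 on its 1 probe set, 204304_s_at, all below the array medians. The serum starved control array was the lowest, and the 2 log2 differences taken against it, 3.24 with nicotine and 3.14 with ARRB1 siRNA, rested on that signal of 2.8. The pairs without it differed by -0.25 with nicotine and -0.34 with ARRB1 siRNA, against SDs of 1.5 and 1.6.

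KIT, the SCF receptor, was below the median on all 4 arrays as well, with 40.1, 44.3, 16.5 and 28.5 on 205051_s_at. Its log2 differences with ARRB1 siRNA were -1.28 and -0.64, and the SDs for probe sets as dim were 1.15 and 1.18.

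KITLG, the ligand of KIT, was bright on 1 of its 4 probe sets. On 226534_at its signals were 1847, 1636, 1332 and 1349, so both control arrays were above both ARRB1 siRNA arrays. The log2 difference with ARRB1 siRNA was -0.47 in serum starved cells (SD 0.25). In nicotine treated cells it was -0.28, within the SD of 0.28. The additive limma fit put the ARRB1 siRNA difference at -0.37 (SE 0.11, adjusted p = 0.228), and the p ranged from 0.084 to 0.759 over the settings. With nicotine the log2 difference was -0.17 in control siRNA cells (SD 0.18) and 0.02 in ARRB1 siRNA cells. The other 3 KITLG probe sets stayed below the median on every array, with signals of 34.1 to 49.2 on 207029_at, 1.56 to 14.2 on 211124_s_at and 0.54 to 2.05 on 216974_at. With nicotine in control siRNA cells 211124_s_at had a log2 difference of 3.19 (SD at its signal 1.68), from a signal of 1.56 to one of 14.2, both far below the array medians. In ARRB1 siRNA cells its difference was -0.65. Transcript and surface or secreted protein are different measurements, and only RNA was read here.

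Counted over genes, none of SOX2, KLF4, MYC, CD44 and KITLG differed at least 2-fold in any of the 4 comparisons. These are the genes that a probe set names alone and whose brightest such probe set reached a mean signal of 66.3, the median of all probe sets. Among all 12521 such expressed genes, 1.05% did so with nicotine in control siRNA cells, 1.45% with nicotine in ARRB1 siRNA cells, 1.80% with ARRB1 siRNA when serum starved and 2.28% with ARRB1 siRNA after nicotine. At these shares a count of 0 among 5 genes says little about them.

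Counted over probe sets, 20 of the 30 had a mean signal at or above 66.3. With nicotine in control siRNA cells 2 of them (SOX2 213722_at and POU5F1 208286_x_at) were at least 2-fold higher, against 1.42% of all bright probe sets. In ARRB1 siRNA cells none was, against 2.12%. With ARRB1 siRNA 2 were at least 2-fold higher in serum starved cells (SOX2 214178_s_at and POU5F1 208286_x_at, against 2.30%) and 1 in nicotine treated cells (CD44 229221_at, against 2.85%). The SOX2 and POU5F1 differences in serum starved cells both rested on a control signal under the median of its array.

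Of the 10 dim probe sets, 4 and 1 differed at least 2-fold with nicotine and 6 and 4 with ARRB1 siRNA. The shares among all dim probe sets were 39.6%, 41.0%, 39.8% and 41.5%, so a difference of this size was common wherever the signal was low.

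The serum starved pair and the nicotine treated pair of arrays share no array, so a siRNA difference was read once in each. Beyond the SD at their signal in the same direction in both pairs were 4 of the 20 bright probe sets: 213721_at and 228038_at of SOX2, both lower, and 217523_at and 229221_at of CD44, both higher. The share among all bright probe sets was 10.3%, but probe sets of the same gene are not separate members, so the counts are not a test. For nicotine, read in control and in ARRB1 siRNA cells, 2 probe sets did so (213721_at and 213722_at of SOX2, both higher), against 7.08%. The siRNA and nicotine comparisons use the same 4 arrays and are not independent of each other. The plot of differences in each pair shows these probe sets in the corners.

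**Figure D3:**
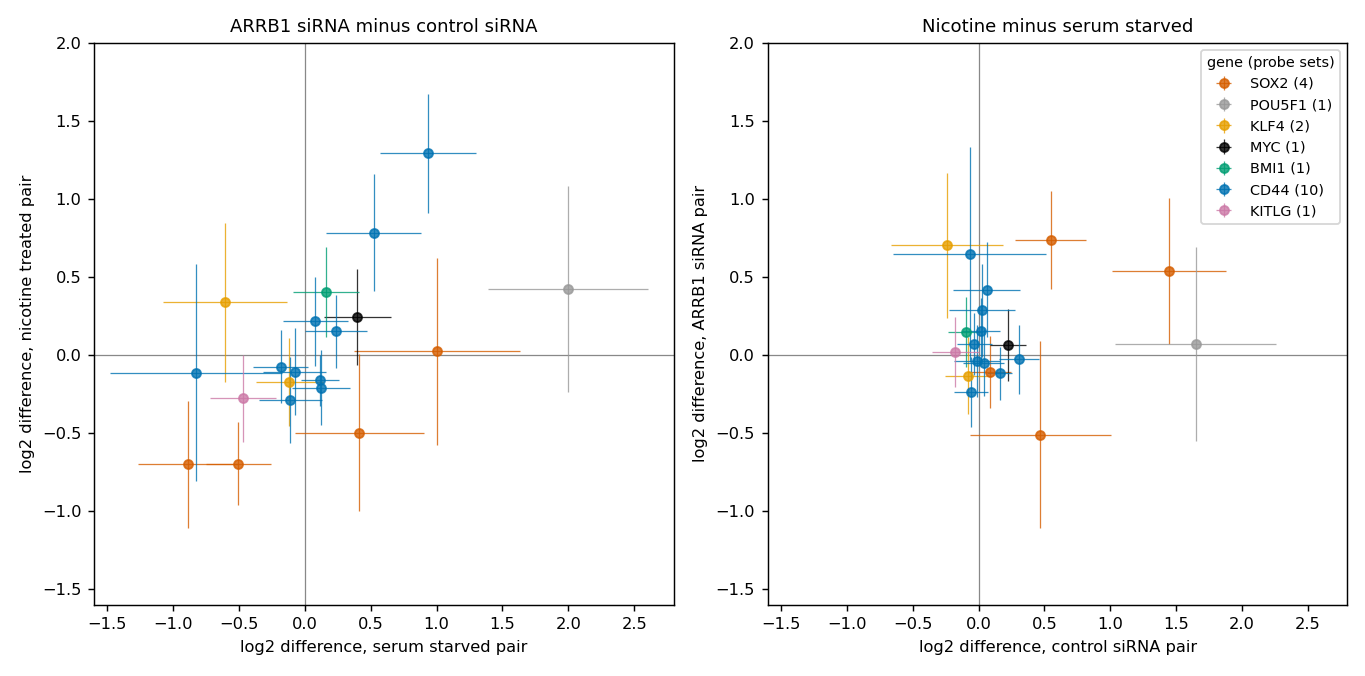
Log2 differences of the 20 bright probe sets with ARRB1 siRNA (left, serum starved pair against nicotine treated pair) and with nicotine (right, control siRNA pair against ARRB1 siRNA pair), with bars of 1 SD of the 500 probe sets nearest in mean signal. In the left panel 2 CD44 points lie in the upper right and 2 SOX2 points in the lower left, with bars that clear 0 on both axes. POU5F1 lies far out on the serum starved and control siRNA axes alone.

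In the additive limma fit 1 stem cell probe set was called for ARRB1 siRNA, CD44 229221_at, where 0.337% of all probe sets were. Unadjusted p-values under 0.05 were found for 8 of the 20 bright probe sets, against 17.6% of all bright probe sets. Most of the 20 belong to CD44 and SOX2, and probe sets of the same gene are not separate members. The genes were also chosen with earlier results of these data known. The shares in this paragraph therefore describe and do not test an excess. Restricted to the brighter probe sets, the fit called 4 (the SOX2 and CD44 probe sets beyond the SD in both pairs), against 4.29% of all. For nicotine it called none, where 0% of all probe sets were called, and 2 of the bright probe sets, both of SOX2, had unadjusted p-values under 0.05, against 8.92% of all bright probe sets.

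The genes whose pattern over the 4 arrays was most like that of KITLG 226534_at, by Euclidean distance between log2 signals centred per gene, were ELAC1 (0.023), a tRNA-processing enzyme, TMEM132A (0.024), PLAAT2 (0.034), TMEM260 (0.035) and DDX52 (0.039), an RNA helicase. With only 4 arrays 676 expressed genes lay within a distance of 0.2, so closeness is common.

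Wider lists of genes around the 10 were read in the same way, each gene by its brightest probe set. The medians of all expressed genes were -0.02 and -0.01 with nicotine in control and ARRB1 siRNA cells, and 0.02 and 0.02 with ARRB1 siRNA in serum starved and nicotine treated cells, on the log2 scale. Of all expressed genes, 34.6% were higher and 30.0% lower with ARRB1 siRNA in both pairs. The additive limma fit called 0.272% of them higher and 0.647% lower with ARRB1 siRNA. The fit restricted to the brighter probe sets called 2.22% higher and 2.79% lower. The calls in each list stand against these shares. For list genes, adjusted p-values are given from these fits alone. Without the trend and robust settings, where no stem cell probe set was called, list genes were not tested. On simulated data unchanged probe sets exceeded their allowed share of the calls, so a call in a list is tentative.

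In the pluripotency network, the partners of SOX2, OCT4 and NANOG in embryonic stem cells, 7 of 21 measured genes were expressed in A549. Their medians with ARRB1 siRNA were -0.04 in serum starved and -0.41 in nicotine treated cells, with 5 of 7 lower in both pairs, none higher in both and none called. Signals of NR5A2, a nuclear receptor, were 2105, 2219, 1661 and 1667, and the additive limma fit gave -0.38 (adjusted p = 0.194). LIN28B, an RNA-binding protein that blocks let-7 maturation, had 939, 966, 935 and 744. Most others, among them ZFP42, DPPA4 and LIN28A, lay below the median on all arrays, as NANOG did.

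In the SOX and KLF families 20 of 32 measured genes besides SOX2 and KLF4 were expressed, 10 of them lower with ARRB1 siRNA in both pairs and 1 higher. The medians were -0.09 and -0.22, and none was called in the additive limma fit, while the restricted fit called 2 of the 20 lower, SOX8 and SOX9. SOX9, a marker of distal lung progenitors, had signals of 2177, 2227, 1640 and 1477, a difference of -0.50 (SE 0.11, adjusted p = 0.115, or 0.026 in the restricted fit). SOX8 had 299, 361, 182 and 134, a difference of -1.07 (adjusted p = 0.111, or 0.021). KLF5, an epithelial relative of KLF4, had 1719.6, 2501, 1247 and 2256, with nicotine differences of 0.54 and 0.85 that were not called.

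Genes that MYC is known to switch on were mostly higher with ARRB1 siRNA, whereas its dimerization network was divided. Of 27 expressed target genes, 19 were higher in both pairs and 2 lower, with medians of 0.18 and 0.24 (0.13 and 0.14 after quantile normalization). The counts were not repeated after that normalization. In the additive limma fit 2 were called, NOLC1, a nucleolar phosphoprotein, which rose by 0.61 (adjusted p = 0.033, signals 4224, 4344, 6558 and 6520), and NPM1, nucleophosmin, which rose by 0.45 (adjusted p = 0.042). The restricted fit called 5 of the 27 higher, these and ODC1, LDHA and NOP16. Neither of the 2 other bright probe sets of NOP16 was higher in both pairs, whereas the 2 others of NPM1 and the 2 of NOLC1 were. Of 19 expressed members of the MYC-MAX network, 6 were higher and 6 lower in both pairs and none was called, with MXD1, a MYC antagonist, at 264, 204, 172 and 122.

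Around BMI1, 27 Polycomb genes were expressed, 11 higher and 11 lower with ARRB1 siRNA in both pairs, with medians of 0.07 and -0.05 and none called. The restricted fit called 1 higher and 1 lower. PHC2, a subunit of the same complex as BMI1, had 1944, 2042, 2670.5 and 2899, a difference of 0.48 (adjusted p = 0.100, or 0.023 in the restricted fit). MTF2, an accessory factor of Polycomb repressive complex 2, had 1162, 1476, 642 and 1163, a difference of -0.60 (adjusted p = 0.150, or 0.038). The 1 other bright probe set of PHC2 did not share its direction in both pairs. Of the 4 others of MTF2, 2 did. CDKN2A, the locus that BMI1 represses in many cells, had 69, 80, 123 and 62.2, near the array medians. It counted as expressed by its mean signal alone, and these values do not show whether the locus was transcribed.

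Around CD44, 20 genes of a mixed list were expressed, 9 higher and 5 lower in both siRNA pairs, with medians of 0.06 and 0.02. The list joined hyaluronan genes such as HAS2 and CEMIP2 with others, among them EZR, ADAM10, ICAM1 and SRSF1. CEMIP2, a cell surface protein of hyaluronan breakdown, fell by 0.63 with ARRB1 siRNA in the additive limma fit (adjusted p = 0.042), from 3761 and 3588 to 2449 and 2308. HAS2, a hyaluronan synthase, had 239, 329, 433 and 470, a difference of 0.68 (adjusted p = 0.158, or 0.042 in the restricted fit), and SRGN, the proteoglycan serglycin, which CD44 binds, had 0.36 (adjusted p = 0.102, or 0.029). Among 21 other expressed surface markers of stem-like cells, with medians of 0.01 and -0.02, ANPEP, aminopeptidase N (CD13), fell by 1.07 (adjusted p = 0.025), from 814 and 776 to 406 and 354. PROM2, a relative of PROM1, had 269, 295, 617 and 299. Its serum starved ARRB1 siRNA array stood above the other 3, with log2 differences of 1.20 with ARRB1 siRNA in starved cells (SD 0.38) and -1.04 with nicotine in ARRB1 siRNA cells (SD 0.31), and neither term was called.

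Around KIT and SCF, 28 signalling genes were expressed, 12 higher and 8 lower in both siRNA pairs, with medians of 0.04 and 0.00. STAT3, a transcription factor used by many cytokine receptors, fell by 0.64 with ARRB1 siRNA (adjusted p = 0.037, limma), from 5005 and 4669 to 3089 and 3109. MMP9, a secreted metalloprotease linked to release of SCF, rose by 1.53 (adjusted p = 0.018), from 134 and 151 to 390.2 and 436. In the same fit CDH1, the epithelial cadherin, fell by 0.74 (adjusted p = 0.019), from 5218 and 4812 to 3201 and 2827, while the 12 epithelial and A549 genes as a list had medians of 0.10 and 0.32, which became -0.08 and 0.04 after quantile normalization. Before that normalization 10 of these 12 genes were higher and 2 lower with ARRB1 siRNA in both pairs, so such a rise was not particular to MYC targets. Whether STAT3, MMP9 and CDH1 stay called without the trend and robust settings of the fit was not tested. The plot of lists gives each gene.

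**Figure D4:**
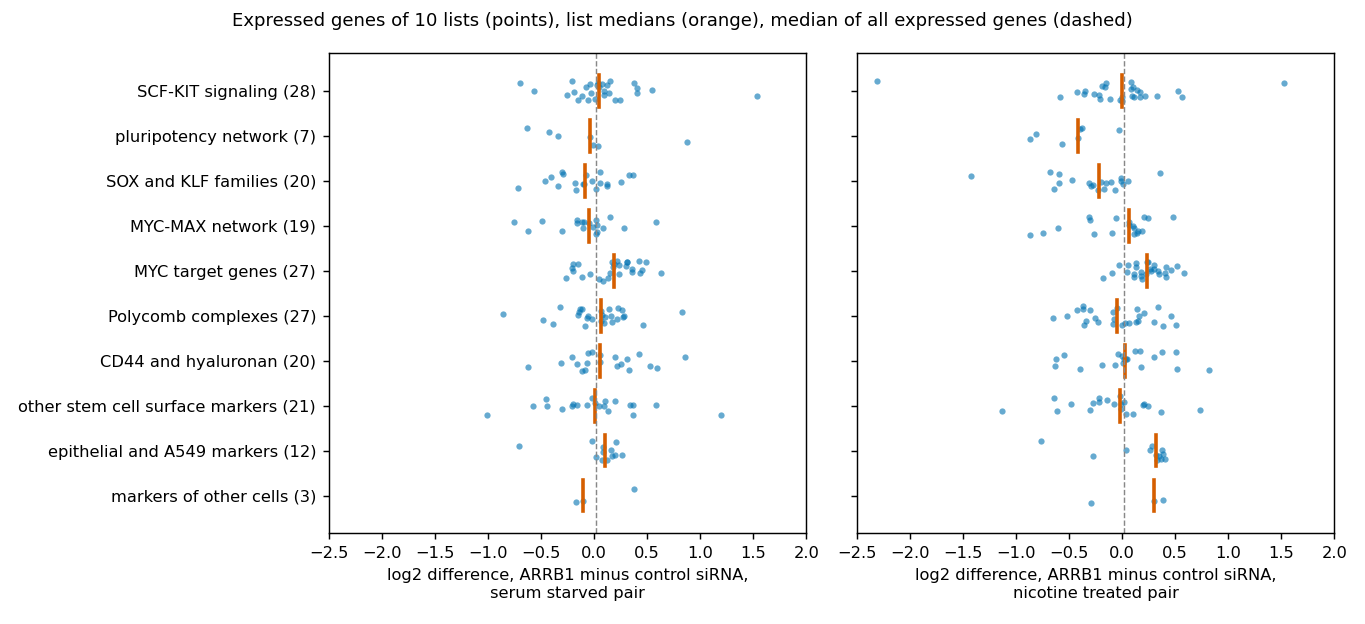
Log2 differences with ARRB1 siRNA in serum starved (left) and nicotine treated (right) cells for the expressed genes of 10 lists, with 1 point per gene, list medians as orange bars and the median of all expressed genes (0.02) as a dashed line. The bars of MYC target genes and of the epithelial and A549 genes lie to the right of the line in both panels. Those of the pluripotency and SOX and KLF lists lie to its left. Most others lie near it, while the bar of markers of other cells lies at -0.10 (left) and 0.30 (right).

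With nicotine the same lists had medians of -0.02 to 0.17 in control siRNA cells and of -0.30 to 0.29 in ARRB1 siRNA cells, and no gene of any list was called. FGF4, a growth factor gene that SOX2 and OCT4 activate in embryonic cells, was the 1 expressed pluripotency gene at least 2-fold higher in control siRNA cells. Its signals were 67.2, 142, 123 and 77.6, and the first lay below the median of its array, 68.6. The log2 difference was 1.08 in control siRNA cells (SD 0.46) and -0.66 in ARRB1 siRNA cells (SD 0.56).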

How the data were processed

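RNA of A549 cells was hybridised to 4 Affymetrix U133 Plus 2.0 arrays, with the siRNA and treatment of each taken from its sample title. The authors deposited linear signal intensities. The submitters' processing notes credit MAS5 and GCOS 1.4, while the study's text names Expression Console and describes a log2 transformation with gene centring that these intensities do not hold.

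The table holds 54675 probe sets, and without 62 controls 54613 remained, of which 41091 named 1 gene, 1801 several and 11721 none. Python 3.11.15 with numpy 2.4.6 and pandas 2.3.3 gave log2 differences with no floor and the SD of the differences of the 500 probe sets nearest in mean signal. The 2-fold limit is that of the submitters. For each gene the probe set of highest mean log2 signal was used. Additive fits used limma 3.58.1 in R 4.3.3 (trend and robust, Benjamini-Hochberg over all probe sets) and were tested on simulated data, where unchanged probe sets made up a larger share of the calls than the threshold of 0.05 allows.

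The naming rule took all probe sets of the 10 genes, and from each of 10 lists the genes with the largest mean differences, those at least 2-fold different and genes needed to say what a list holds. Some of those go unnamed. NOP16, SRGN, PTPRC, LIN28B, LIN28A, ZFP42 and DPPA4 lie outside the rule and were chosen after their values were seen. The 10 genes and the lists were chosen with earlier results of these data known, and the count beyond the SD in both pairs was added after the data were examined. Alternatives were array centring, quantile normalization, floors, other fold limits and filters, the median over a gene's probe sets, and fits without trend and robust settings or on bright probe sets. Sequences are from RefSeq (GRCh38.p14). MYC and POU5F1 upstream sequences were not used here. Figures were drawn with matplotlib 3.10.9.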

Additional observations from a re-analysis of the deposited data

Results flagged for a closer look

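With ARRB1 siRNA, KITLG 211124_s_at had log2 differences of 1.15 without nicotine and -2.69 with it, a gap of 3.84, with all 4 signals (1.56, 14.2, 3.45 and 2.19) far below the array medians. The opposite signs drew attention to it, and the gap was not tested. With nicotine, ADAM33 233868_x_at, a membrane metalloprotease of the SCF and KIT list, had 1.24 in control and -1.03 in ARRB1 siRNA cells, a gap of 2.27 that was likewise not tested. Its signals were 83.4, 197, 81.1 and 39.7.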

How the results depend on the processing

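With genes counted at 2-fold, removing the filter on low signals moved the count of 0 stem cell genes to 1 (PROM1) for nicotine in control siRNA cells, 1 (NANOG) for nicotine in ARRB1 siRNA cells and 3 (NANOG, PROM1 and KIT) for ARRB1 siRNA in serum starved cells, where a filter at the 25th percentile gave 1 (KIT). A 1.5-fold limit gave 1 (SOX2) for ARRB1 siRNA in nicotine treated cells. The 1 probe set called for ARRB1 siRNA in the additive limma fit became 4 with a floor at the 25th percentile, 4 with a floor at the median, 4 among bright probe sets alone and 0 without the trend and robust settings. Centring and quantile normalization left that count at 1, and the nicotine count was 0 under every setting tried. The count of 17 probe sets at or above the array median stayed within 1.5 times at the 25th and 75th percentiles. Of 440 values of single probe sets under alternatives, 423 kept their direction and side of the threshold or moved by less than the SD at their signal, 7 moved further, 9 adjusted p-values passed the threshold where the main one had not and 1 lost it. Of 320 single differences, 12 changed sign, on CD44 and SOX2 probe sets. Of those, CD44 212063_at moved by more than the SD at its signal, from 0.11 to -0.12 after quantile normalization (ARRB1 siRNA, serum starved). No paired analysis was possible because the labels carry no replicate numbers and each condition has 1 array. Low signal limits NANOG, PROM1 and KIT on these arrays. The cause of these shifts was not tested.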
